A study of Mus musculus with 18 samples.

Results

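The MHC class II presentation genes described here were fixed by symbol: Cd74, H2-Aa, H2-Ab1, H2-Eb1, H2-DMa, H2-DMb1, their activator Ciita, and Ptprc, which encodes the leukocyte surface protein CD45 and served as the gene against which epithelial expression was judged. All 8 were found among the 43346 genes of the count table, each on 1 row, and all 8 passed the filter of a mean count above 0. RNA was measured in EPCAM+ cells sorted from crypts of the small intestine (SI) and large intestine (LI) at 3 levels of Lgr5-GFP, where high, medium and low GFP stand for cells at the centre of the crypt base, at its border and above row 3. Each of the 6 groups held 3 libraries. By their labels, all 18 came from untreated C57BL/6 mice aged 8 to 20 weeks that carried the allele spelled Lgr5_eGFP_Iris_creERT2, so the allele is shared by every group. The paper's methods give a wider age range for the RNA-seq mice, and a mixed or C57/B6 background. The allele reports Lgr5 through GFP and is known to be silenced in patches of crypts, so GFP-low cells may include cells of unlabelled crypts. The gate kept living EPCAM+ cells, and no step that removes CD45+ cells is given in the sources used here.

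MHC class II molecules show peptides from endosomes to CD4+ T cells. The α and β chains are assembled with the invariant chain, encoded by Cd74, which fills the peptide groove until it is cut by proteases, and the H2-DM heterodimer then exchanges its remnant for a peptide. Ciita binds the RFX, NF-Y and CREB proteins at class II promoters and is the factor whose presence sets whether the genes are read. Dendritic cells, macrophages and B cells express class II constitutively, and intestinal epithelial cells, Lgr5+ stem cells among them, are known to express it too, most of all under interferon gamma.

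The chain and H2-DM genes lie together on chromosome 17. In mm10 with GENCODE M21, H2-DMa was at chr17:34119541-34139101, H2-DMb1 at chr17:34153072-34160230, H2-Ab1 at chr17:34257689-34269419, H2-Aa at chr17:34282744-34287823 on the minus strand and H2-Eb1 at chr17:34305867-34316674. Ciita lay at chr16:10480059-10528418 and Ptprc at chr1:138062861-138175708 on the minus strand. RefSeq promoter windows on GRCm38.p6, from 250 bases before to 50 after the start, were given for 5 of the 8 members. They are shown because the members moved together across libraries, and class II promoters are known to share an X box and a Y box. The letters searched, chosen after these promoters were seen, were AACTGATG, a part of the X box, and TGATTGG for the Y box, each on both strands, and the letters do not overlap in the windows shown. The X box letters were found in 255 of 32851 windows, or 0.776%, the Y box letters in 7.82% and both in 28 windows, or 0.0852%. H2-Eb1 and H2-DMb1 held both, H2-Aa held the Y box letters only, and neither window of H2-DMa nor of Ptprc held either. Capitals mark the matched letters, read 5′ to 3′ on the strand of the gene.
H2-Eb1, chr17:34305747-34305855, plus strand: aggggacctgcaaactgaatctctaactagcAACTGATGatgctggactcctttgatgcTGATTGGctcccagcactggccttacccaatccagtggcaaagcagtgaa
H2-DMb1, chr17:34153091-34153120, plus strand: tacctagtAACTGATGatgctaggctgatt
H2-Aa, chr17:34287835-34287943, minus strand: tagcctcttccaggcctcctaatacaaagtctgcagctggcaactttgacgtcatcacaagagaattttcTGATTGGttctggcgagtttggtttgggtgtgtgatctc
The X and Y box letters stood 20 bases apart in H2-Eb1 and 21 in H2-DMb1, whose stretch is limited to 30 bases, short of its Y box letters, because GENCODE places an exon there. A match describes the letters and no binding was measured.

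The libraries held between 8312093 and 31940965 counts, and Epcam was high in every one, from 14653 to 24706 normalised counts, which are counts divided by the authors' size factor of the library. Lgr5 fell with GFP in both sites, from a mean of 3959 normalised counts at SI centre to 159 above row 3, and from 2359 to 287 in the LI. SI border replicate 3 held 157, less than SI replicates 1 and 2 above row 3 (170 and 280). Within SI replicate 3 it fell from 2434 at the centre to 157 and 28.1. The 3 SI libraries numbered replicate 3 stood apart from the other SI libraries. Genes that reached 20 CPM (counts as a proportion of the library total) in every LI library of a level, with a mean at least 20-fold above that of SI replicates 1 and 2, stood in SI replicate 3 at 64.3% of the LI level at the centre, 86.8% at the border and 78.8% above row 3, as medians over 49, 39 and 36 genes. Genes of the opposite pattern, members left out, were at medians of 31.7%, 14.1% and 25.03% of SI replicates 1 and 2. Both sets were chosen on these libraries and describe them only. For the LI-high genes the 3 libraries thus lay near the LI, against their site label, while genes of the opposite pattern were reduced but not absent. The defensin gene Defa22 was at 2027, 385 and 151 normalised counts in SI replicate 3 at centre, border and row >3, and at most 5.50 in any LI library. Nos2 at the centre, by contrast, fell among the LI values. The site label of the 3 libraries is in doubt and is kept here as given. The SI against LI results of the members are therefore given with and without SI replicate 3, and those of other genes where stated. The animal behind a replicate number is not given, so p-values measure the spread between these libraries.

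The class II genes had higher levels in the SI than in the LI at each level of Lgr5, and the edgeR test with all libraries called 4, 3 and 5 of the 7 at centre, border and row >3, against 1.19%, 1.15% and 2.76% of all genes called higher. The calls depended on the fit. At each level leaving out certain single libraries ended every call, and a fit of the groups compared alone called fewer, none of them at the centre. Other fits called more, as given below. In 6 of the 7 class II genes, every library labelled SI lay above every LI library, and the exception, H2-DMb1, overlapped through a single SI library. The fitted excess ran from 7.67-fold to 106-fold, with H2-Aa the most unequal of the 7 and H2-DMb1 the least at each level. Ptprc overlapped between the sites at all 3 levels.

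**Figure D1:**
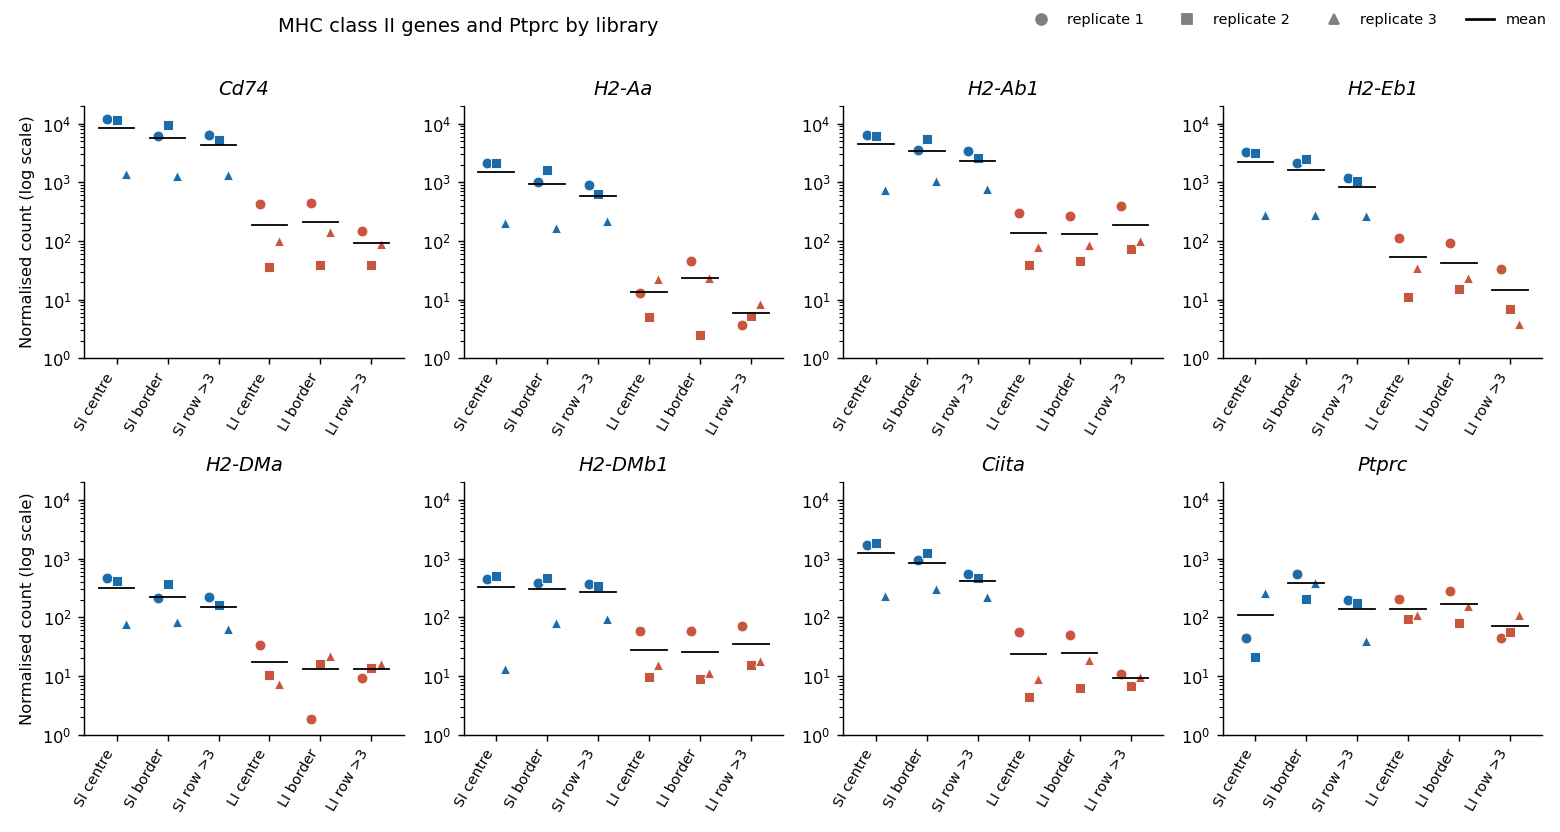
Normalised counts (log axis) of the 7 class II genes and Ptprc in each of 18 libraries, by group, with circles, squares and triangles for replicates 1, 2 and 3 and a line at the mean of 3. SI libraries (blue) sit above LI libraries (red) in every class II panel but for SI centre replicate 3 of H2-DMb1, and the SI triangles lie below the other SI points, while Ptprc overlaps.

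Cd74, the invariant chain gene on chromosome 18, was per length of exon the most abundant member in each library but LI replicates 1 and 2 above row 3, where H2-Ab1 exceeded it. The SI libraries of replicates 1, 2 and 3 held 11893, 11693 and 1408 normalised counts at the centre, 6075, 9497 and 1267 at the border, and 6432, 5179 and 1338 above row 3. The LI libraries held 425, 35.7 and 99.0 at the centre, 438, 38.7 and 143 at the border, and 149, 39.5 and 88.6 above row 3. The lowest SI library, at 1267, was thus above the highest LI library, at 438, while replicates differed widely within each site. SI exceeded LI by a log2 fold change of 5.49 ± 1.28 (SE) at the centre (edgeR adjusted p = 0.0510), 4.68 ± 1.23 at the border (0.0856) and 5.50 ± 1.30 above row 3 (0.0343), and so passed the threshold of 0.05 above row 3 only. Leaving out SI replicate 3 gave 6.09 (0.00240), 5.17 (0.00658) and 5.99 (0.00267).

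H2-Aa and H2-Ab1 encode the α and β chains of I-A, the class II molecule of C57BL/6 mice, which lack a functional I-E α chain. H2-Aa was at 2162, 2135 and 202 normalised counts at SI centre, 1020, 1651 and 164 at SI border and 886, 637 and 215 in SI cells above row 3. In the LI it was at 12.9, 5.10 and 22.9, then 44.9, 2.495 and 23.8, then 3.64, 5.31 and 8.49. Its lowest SI value, 164, was above its highest LI value, 44.9. The log2 fold change was 6.72 ± 1.18 at the centre, 5.15 ± 1.09 at the border and 6.58 ± 1.30 above row 3, with edgeR adjusted p of 0.0109, 0.0310 and 0.0113, and 7.29, 5.69 and 7.01 without SI replicate 3 (2.49e-11, 5.61e-10 and 4.74e-10). H2-Aa was one of 3 members, with H2-DMa and Ciita, that passed at each level.

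H2-Ab1 was at 6476, 6176 and 740 normalised counts at SI centre, 3532, 5492 and 1072 at SI border and 3442, 2582 and 770 above row 3. Its LI values were 296, 39.4 and 79.3, then 270, 44.9 and 84.9, then 388, 72.9 and 98.1. The sites did not overlap, and LI replicate 1 was the highest LI library at each level. The log2 fold changes of 5.02 ± 1.18, 4.58 ± 1.16 and 3.56 ± 1.10 did not pass, with edgeR adjusted p of 0.0515, 0.0735 and 0.107. In the fit without SI replicate 3 they were 5.62 (0.00265), 5.02 (0.00621) and 4.03 (0.0109).

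H2-Eb1 encodes the β chain of I-E. It was at 3240, 3172 and 276 normalised counts at SI centre, 2101, 2512 and 281 at the border and 1200, 1069 and 267 above row 3, against 113, 10.9 and 34.4, then 90.8, 14.97 and 23.1, then 33.7, 6.83 and 3.77 in the LI. The sites were again separate at each level. Its log2 fold change passed at the centre (5.45 ± 1.25, edgeR adjusted p = 0.0469) and above row 3 (5.80 ± 1.37, 0.0346), but not at the border (5.15 ± 1.24, 0.0633). It was 6.08, 5.68 and 6.28 at centre, border and row >3 without SI replicate 3 (8.57e-05, 2.16e-04 and 1.86e-04).

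H2-DMa and H2-DMb1 encode the heterodimer that loads peptide. H2-DMa was at 459, 409 and 75.5 normalised counts at SI centre, 215, 362 and 84.2 at the border and 220, 160 and 62.4 above row 3, and between 1.83 and 34.1 in the LI libraries. Its log2 fold changes of 4.26 ± 0.78, 3.94 ± 0.82 and 3.48 ± 0.81 passed at each level (edgeR adjusted p = 0.00916, 0.0214 and 0.0218), as did the 4.79, 4.41 and 3.86 without SI replicate 3 (1.54e-08, 5.34e-07 and 1.66e-06). H2-DMa shares exon positions with Brd2 on the opposite strand, which held 2168 to 7261 counts per library, and the strand used in counting is not given, so its counts are uncertain.

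H2-DMb1 was the member on which the sites overlapped. It was at 452, 505 and 13.1 normalised counts at SI centre, 378, 464 and 79.9 at the border and 366, 344 and 93.7 above row 3, and the LI libraries ran from 8.73 to 71.1. SI centre replicate 3, at 13.1, fell among the LI centre values of 58.8, 9.48 and 15.5, whereas the border and row >3 libraries stayed apart. Its log2 fold changes were 3.61 ± 1.19, 3.45 ± 1.20 and 2.94 ± 1.13 and did not pass (edgeR adjusted p = 0.160, 0.202 and 0.211). Without SI replicate 3 they were 4.26 (3.86e-05), 3.97 (1.75e-04) and 3.38 (2.15e-04). Reads may also be shared with the close paralogue H2-DMb2, which had at most 9 counts in any library.

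Ciita, the class II transactivator, was at 1694, 1814 and 230 normalised counts at SI centre, 956, 1253 and 307 at the border and 536, 475 and 223 above row 3. In the LI it was at 56.5, 4.37 and 8.997, then 49.5, 6.24 and 18.6, then 10.9, 6.83 and 9.43. The lowest SI library was 223 and the highest LI library 56.5. Its log2 fold changes were 5.88 ± 0.99, 4.95 ± 0.95 and 5.46 ± 1.07, all past the threshold (edgeR adjusted p = 0.00923, 0.0209 and 0.0117), and 6.47, 5.38 and 5.80 without SI replicate 3 (1.54e-08, 1.94e-07 and 3.91e-07). Ciita overlaps Dexi on the opposite strand, which held 49 to 283 counts.

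None of the 7 class II genes was called lower in the SI. Over all 26717 genes tested, 1.99%, 1.75% and 4.09% were called at the 3 levels in either direction, and 0.805%, 0.599% and 1.32% as lower. The SI and LI libraries did not overlap for 6, 7 and 7 of the genes, with the SI higher, against 8.49%, 6.45% and 9.03% of all genes. Without SI replicate 3, all 7 were called at each level, against 4.51%, 3.70% and 6.80% of the 26181 genes tested then as higher. Those libraries were set apart by genes that differ between the sites, so leaving them out favours calls of SI over LI. DESeq2 called 7, 7 and 6, leaving out H2-DMb1 above row 3 (adjusted p = 0.112), against 2.07%, 2.37% and 3.58% as higher. At the border, where libraries of the same number deviated together across the sites, a fit with the replicate number as a block also called all 7 (Cd74 4.59, edgeR adjusted p = 0.0269, and Ciita 4.87, 3.34e-04), against 2.30% of all genes as higher. The median log2 fold change of the 7 was 5.45, 4.68 and 5.46 against 0 over all genes. Some alternatives called fewer. A fit of the groups compared alone called none at the centre, where H2-DMa had the lowest edgeR adjusted p (0.0562). Leaving out certain single libraries ended every call at each level. The shares of all genes called in these last fits are not given.

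**Figure D2:**
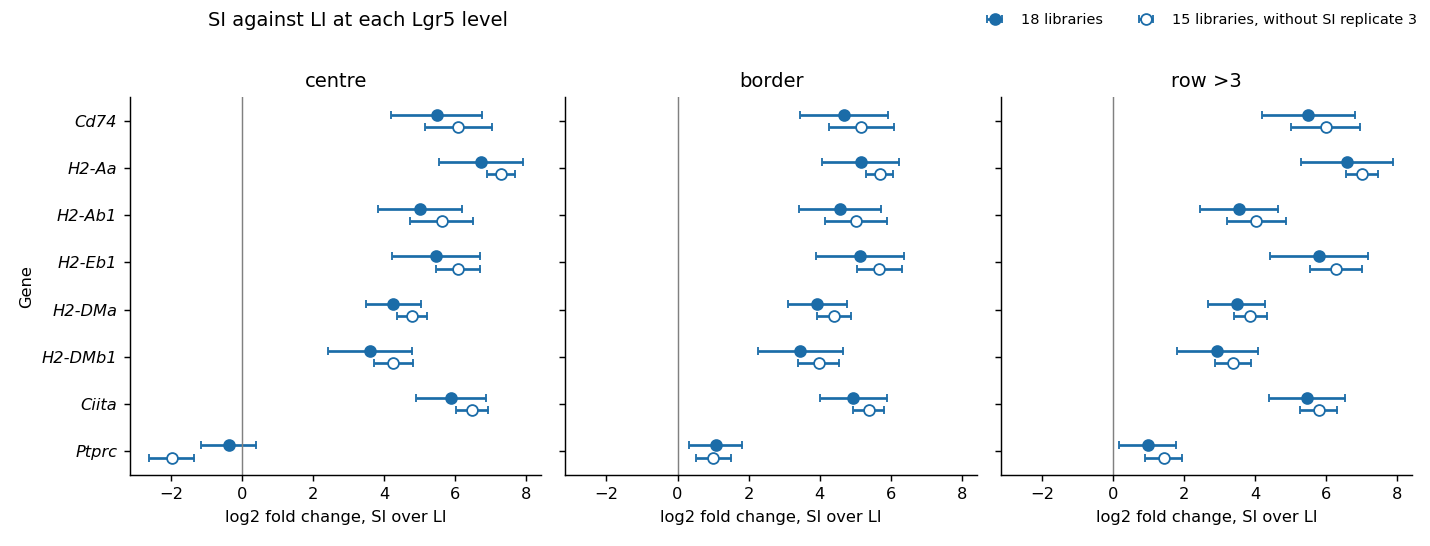
Log2 fold change of SI over LI with its SE for 8 genes at each Lgr5 level, in the edgeR fit of 18 libraries (filled) and of 15 libraries without SI replicate 3 (open). The 7 class II genes lie between 2.94 and 7.29 at all levels in both fits, and Ptprc lies between -1.98 and 1.42.

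In SI replicate 3 the class II genes were at 2.77% to 17.7% of the mean of replicates 1 and 2 at the centre, 12.8% to 30.5% at the border and 23.7% to 45.3% above row 3. At the centre these shares were below the median of 31.7% over the other genes high in SI replicates 1 and 2. At the border and above row 3 they ran from below to above the medians of 14.1% and 25.03%. Among the LI libraries, replicate 1 was the highest at centre and border for Cd74, H2-Ab1, H2-Eb1, H2-DMb1 and Ciita. It also held the highest LI sums of the B and plasma cell genes, 96.4 normalised counts at the centre and 76.1 at the border, against 2.45 to 20.5 in the other LI libraries. Whether these counts bear on the class II values of those 2 libraries was not tested.

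Within the SI, all 7 class II genes were highest at the centre in replicates 1 and 2, and they were lowest above row 3 but for Cd74 and H2-DMa in replicate 1, which were lowest at the border. In replicate 3 the border libraries ran from 81.1% to 145% of the centre and those above row 3 from 82.7% to 106%, H2-DMb1 left out. Set against the centre library of the same number, Cd74 above row 3 was at 54.1%, 44.3% and 95.0% in replicates 1, 2 and 3, and at the border at 51.1%, 81.2% and 89.9%. Ciita fell furthest in the first pair, to 31.7% and 26.2%, and was at 96.9% in replicate 3. H2-Aa was at 41.0%, 29.9% and 106%, and H2-Eb1 at 37.0%, 33.7% and 96.7%. H2-DMb1 changed least in replicates 1 and 2, at 80.9% and 68.2%, and its 717% in replicate 3 rests on the low centre library.

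**Figure D3:**
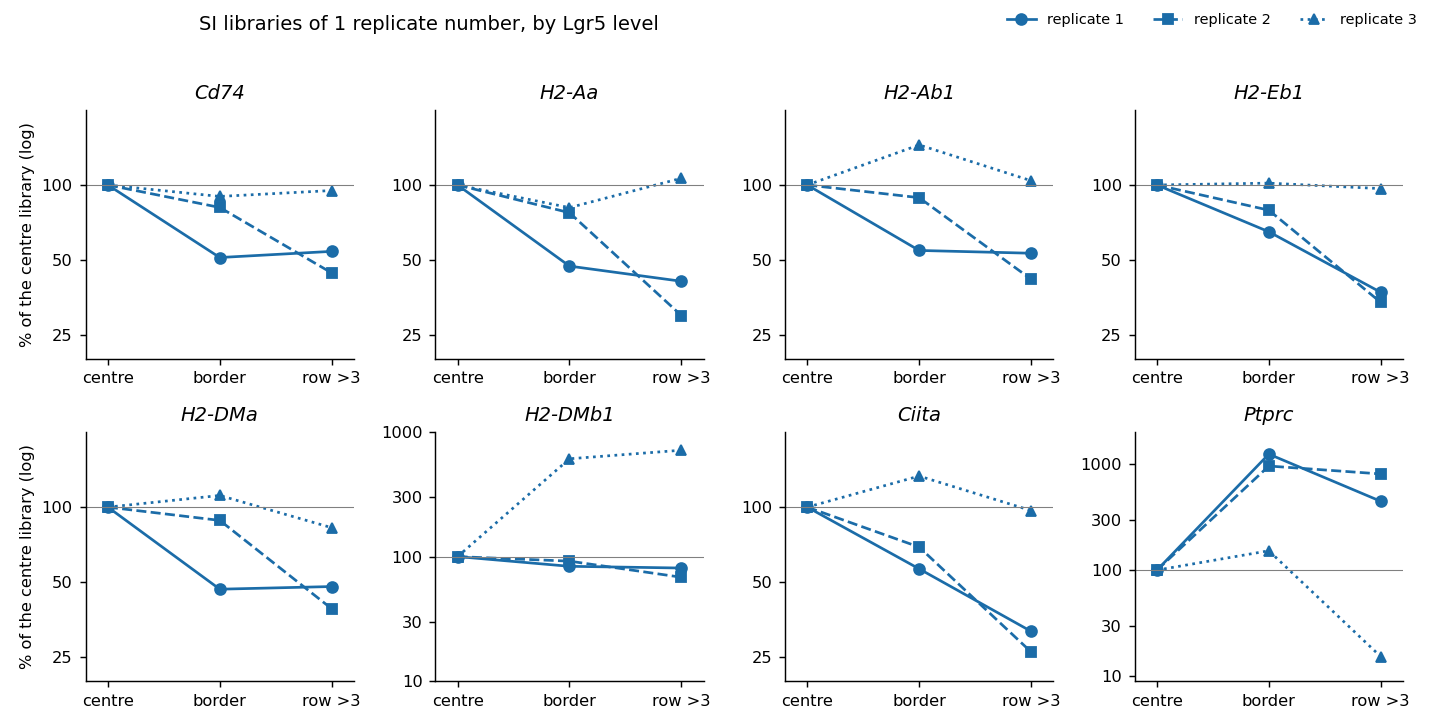
Normalised count at centre, border and row >3 of the SI as a percentage of the centre library of the same replicate number (log axis), for 8 genes, with solid, dashed and dotted lines for replicates 1, 2 and 3. Solid and dashed lines of the class II genes end between 26.2% and 80.9%, whereas the dotted lines end between 82.7% and 106% apart from H2-DMb1.

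In the edgeR fit of groups alone none of the 7 was called between row >3 and centre of the SI, where 13.2% of all genes were called, 7.35% higher and 5.82% lower, none was under an unadjusted p of 0.05, and DESeq2 called none. The log2 fold changes ran from -1.58 ± 0.75 for Ciita (edgeR adjusted p = 0.223) to -0.24 ± 0.95 for H2-DMb1 (0.997), with Cd74 at -0.95, H2-Aa at -1.35, H2-Ab1 at -0.97, H2-Eb1 at -1.39 and H2-DMa at -1.05. SI libraries of the same number deviated together, with correlations of 0.358 to 0.783 over 10223 genes in 9 pairs of libraries. When replicate number entered as a block, site by site, 6 of the 7 were called lower above row 3, against 10.5% of all genes. These were Cd74 (-0.73 ± 0.24, edgeR adjusted p = 0.0435), H2-Aa (-1.19 ± 0.26, 0.00176), H2-Ab1 (-0.77 ± 0.22, 0.0220), H2-Eb1 (-1.20 ± 0.19, 9.67e-05), H2-DMa (-1.06 ± 0.29, 0.0104) and Ciita (-1.43 ± 0.24, 1.22e-04). H2-DMb1, at -0.15 ± 0.28 (0.861), did not pass. Without SI replicate 3 and without the block, H2-Aa (-1.49, 8.39e-04), H2-DMa (-1.18, 0.0137) and Ciita (-1.79, 0.00152) were called lower, against 7.09% of all genes. In bulk samples fewer cells that express a gene and less RNA per cell cannot be told apart.

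Between border and centre of the SI edgeR called no class II gene with all libraries, with or without the block, and 1 with the block and without SI replicate 3, Ciita (-0.68, adjusted p = 0.0396). DESeq2 called none, and with all libraries edgeR called 0.0112% of all genes without the block and 2.32% with it. The share of all genes called with the block and without SI replicate 3 is not given, so that 1 call has no background beside it. The log2 fold changes lay between -0.69 for H2-Aa and -0.11 for H2-DMb1. In the fit of groups alone none of the 7 had an unadjusted p under 0.05, which H2-Aa did have with the block (edgeR adjusted p = 0.232) and without SI replicate 3 (0.545). In the LI, with groups alone, none was called for either comparison by edgeR or DESeq2 or at an unadjusted p under 0.05. There edgeR called 0% and 0.0187% of all genes. The values ran from -0.21 to 0.88 at the border and from -1.73 for H2-Eb1 to 0.49 for H2-Ab1 above row 3. With the block, LI values above row 3 ran from -1.79 ± 0.50 for H2-Eb1 to 0.48 ± 0.34 for H2-Ab1. Cd74 was at -0.78 ± 0.39 there. In the SI these 3 genes were at -1.20, -0.77 and -0.73. H2-Eb1 above row 3 then had an unadjusted p under 0.05. None was called in the LI with the block for either comparison, and the share of all genes called there is not given. The difference of these contrasts between SI and LI was called for none of the members or of all genes in the fit of groups alone, with class II values from -1.57 ± 1.62 for H2-Aa (border) to 0.35 ± 1.80 for H2-Eb1 (row >3). DESeq2 called none either, and in the fit of groups alone none was under an unadjusted p of 0.05 with edgeR. Ptprc was at 1.45 ± 1.08 and 1.35 ± 1.12. The SEs of the class II differences ran from 1.22 to 2.31, so large differences between the sites would not have been detectable in that fit. Without SI replicate 3, H2-Aa at the border had an unadjusted edgeR p of 0.0262 (adjusted 0.99998). With the block as well, 1 class II gene was called for the difference of row >3 over centre.

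To compare members per length, counts per kb of merged exons were rescaled to the same total in each library. By this measure Cd74 led at SI centre with a mean of 195 ± 148 (SD, n = 3). Next came H2-Ab1 at 68.4 ± 52.4, H2-Eb1 at 45.1 ± 35.8 and H2-Aa at 15.5 ± 12.2. H2-DMb1 at 7.53 ± 6.33, Ciita at 5.10 ± 3.74 and H2-DMa at 3.59 ± 2.60 followed, and their spreads overlap. Ptprc was at 0.213 ± 0.243. At LI centre Cd74 was at 5.37 ± 6.43 and H2-Ab1 at 2.59 ± 2.81, and Ptprc at 0.344 ± 0.193. These means pool unlike libraries. In normalised counts, Ptprc at SI centre was 256 in replicate 3 against 44.6 and 21.2 in replicates 1 and 2. Cd74 there was 1408 against 11893 and 11693, and at LI centre it was 425 in replicate 1 against 35.7 and 99.0.

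Across the 18 libraries, log2 CPM of the class II genes moved together, with Pearson r from 0.795 between H2-DMa and H2-DMb1 to 0.990 between Cd74 and Ciita. With Ptprc their r lay between -0.014 and 0.116, and between -0.055 and 0.109 over the 15 libraries without SI replicate 3. These libraries share the site contrast, so r describes its size and not independent points.

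Ptprc itself followed another pattern. It was at 44.6, 21.2 and 256 normalised counts at SI centre, 555, 203 and 389 at SI border and 199, 171 and 39.0 above row 3. In the LI it was at 206, 94.8 and 107, then 277, 79.8 and 154, then 43.7, 56.2 and 108. The 2 SI libraries with the most Cd74, centre replicates 1 and 2, were among the 3 SI libraries with the least Ptprc, and SI border replicate 1, with the most Ptprc, held 6075 normalised counts of Cd74. SI over LI was -0.37 ± 0.78 at the centre (edgeR adjusted p = 0.903), 1.07 ± 0.75 at the border (0.620) and 0.98 ± 0.80 above row 3 (0.673). The centre value without SI replicate 3 was -1.98 ± 0.65 (0.0622), with LI higher. In that fit Ptprc rose within the SI from centre to border (3.39 ± 0.66, 0.0182, where 0.905% of all genes were called higher) and to row >3 (2.47 ± 0.65, 0.0139, where 9.97% were), and its change to row >3 exceeded that of the LI (3.41 ± 0.83, 0.0308). With all libraries these were 1.81 (0.511), 0.41 (0.844) and 1.35 (0.99999).

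For each Ptprc count, the SI libraries held 3.25 to 552 counts of Cd74 with a median of 32.3, and the LI libraries 0.377 to 3.42 with a median of 0.924. SI replicate 3 libraries ran from 3.25 to 34.3 and those of replicates 1 and 2 from 10.9 to 552. For Ciita the medians were 2.77 in the SI and 0.121 in the LI, and the lowest SI library (0.789) was above the highest LI library (0.274). H2-Aa was likewise apart, at no less than 0.422 in the SI and no more than 0.214 in the LI. The ratios of Cd74, H2-Ab1, H2-Eb1, H2-DMa and H2-DMb1 overlapped between single libraries of the 2 sites.

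**Figure D4:**
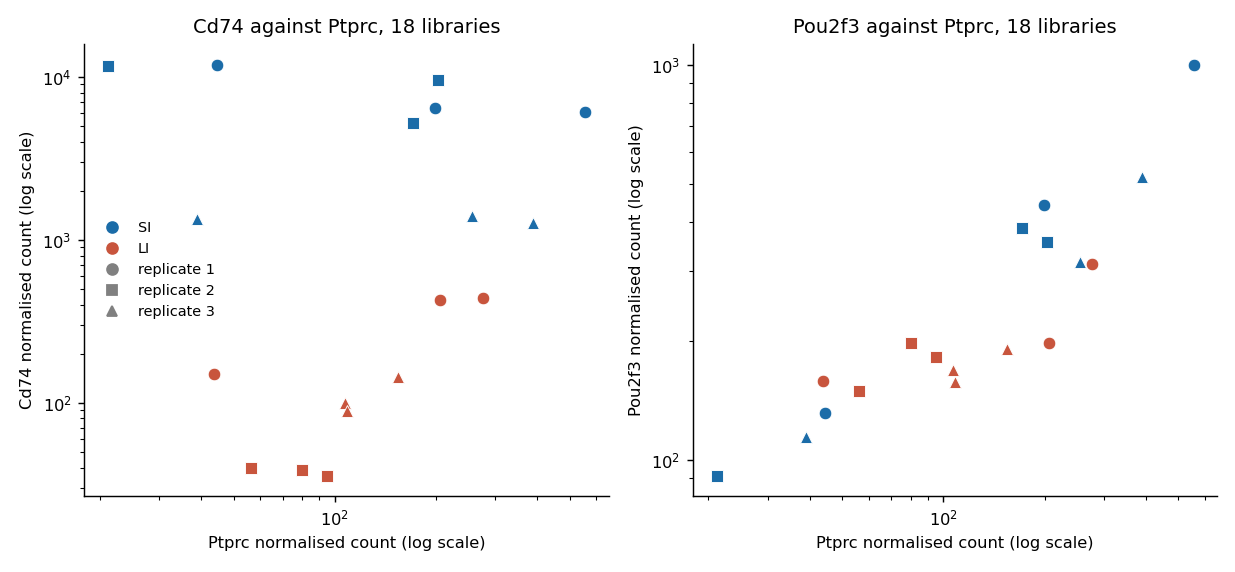
Normalised counts of Cd74 (left) and Pou2f3 (right) against Ptprc in 18 libraries, log axes, SI in blue, LI in red, with the shape giving the replicate. Cd74 separates the sites at any level of Ptprc, whereas Pou2f3 goes up with Ptprc in both sites, from 91.2 to 1001.

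By Pearson r of log2 CPM over 18 libraries among 11790 genes, those most like the mean of Cd74, H2-Aa, H2-Ab1 and H2-Eb1 were Ciita (0.990), Slc30a2 (0.973), Zfpm1 (0.973), Nos2 (0.968), Myrfl, Nr5a2, Cadps2, Malrd1, the Paneth cell defensin gene Defa22 and Plcb3 (0.952). Nos2, which encodes inducible nitric oxide synthase, was at 1814, 1715 and 162 normalised counts at SI centre and at 171, 19.7 and 36.0 at LI centre, so that SI replicate 3 lay below LI replicate 1. Slc30a2, a zinc transporter gene, was at 434, 565 and 190 against 37.6, 6.56 and 16.4. Over 15 libraries, Ciita (0.994), Slc30a2 (0.984) and Nos2 (0.981) led, and Psmb8 (0.972) and H2-DMb1 (0.971) entered the first 10.

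The genes most like Ptprc were Tuba1a (0.906), Rgs13 (0.906), Pou2f3 (0.902), Ahnak2, Sh2d6, Inpp5d, Pik3r5, Nebl, Avil and Map1a (0.885). Over the 15 libraries without SI replicate 3, Map1a (0.8995), Sh2d6 (0.898) and Tuba1a (0.896) led. Rgs13 stayed among the first 10 there, and Pou2f3 and Avil did not. Pou2f3 is the transcription factor that tuft cells require, and Avil, Rgs13 and Sh2d6 are known as tuft cell genes. Tuft cells, which are epithelial, are known to express Ptprc. Pou2f3 was at 131, 91.2 and 316 normalised counts at SI centre, 1001, 355 and 519 at the border and 440, 385 and 114 above row 3, high and low in much the same libraries as Ptprc. In the LI it ranged from 150 to 313. Tuft cell genes were no list of the design and are named from this ranking alone.

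Most other leukocyte genes were at or near 0. Of the 11 pan-leukocyte genes beside Ptprc, 7 (Laptm5, Coro1a, Cd53, Cd52, Arhgdib, Fcer1g and Tyrobp) had at most 39 counts in any library, and Tyrobp had none in any of the 18. The other 4 were Lcp1, Ptpn6, Rac2 and Cytip, with medians of 503, 957, 104 and 42.8 normalised counts. The 11 genes beside Ptprc summed to between 730 and 3214 normalised counts in the SI and between 1375 and 2324 in the LI, lowest in SI centre replicates 1 and 2 (730 and 801), the libraries with the most class II RNA. These 2 sums were mostly Lcp1 (488 and 564) and Ptpn6 (186 and 219), so they say little of the 7 low genes. Of those, Laptm5, Arhgdib, Fcer1g, Coro1a and Cd52 were at 14.6, 10.5, 8.10, 7.29 and 2.43 in replicate 1, and all 7 were at 0 in replicate 2. Of the 11 tested, Ptprc included, edgeR called none between the sites at any level, 0, 1 and 1 had an unadjusted p below 0.05, and by DESeq2 1 was called, lower in the SI above row 3. Leaving out SI replicate 3, none was called higher in the SI and 2, 1 and 2 were called lower, Rac2 and Ptpn6 at the centre, Lcp1 at the border and Lcp1 and Cytip above row 3. The share of all genes called lower in the SI in that fit is not given, here or for the lists below.

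Among genes of antigen-presenting cells, the dendritic cell markers Xcr1, Clec9a and Flt3 had 0 counts in all libraries and Itgax 3 counts over all 18. Cd68 and Mrc1, of the same list, were found in every library, at 14.1 to 143.7 and 4.72 to 66.3 normalised counts. C1qb and C1qc held 2 and 0 counts in all. Itgam, an integrin gene of myeloid cells, was higher in the SI like the class II genes, at 399, 311 and 163 normalised counts at SI centre and 54.7 to 105 at LI centre, and it was called higher in the SI at the border (3.56, edgeR adjusted p = 0.0478) and above row 3 (4.95, 0.00452), and at all 3 levels without SI replicate 3 (2.33, 4.07 and 5.50). Above row 3 it was at 1393 and 1199 in SI replicates 1 and 2 (row >3 over centre 1.65, edgeR adjusted p = 0.147, and 1.87, 9.75e-06, without SI replicate 3). C1qa was high without its partners, from 330 to 898 normalised counts in the LI and 302 to 618 in SI replicate 3, and at most 2.37 in SI replicates 1 and 2. The summed myeloid and dendritic list ran from 479 to 1494 normalised counts in the SI and 493 to 1023 in the LI.

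B and plasma cell genes summed to between 6.2 and 99.7 normalised counts in the SI and 2.45 to 96.4 in the LI, and none of 9 was called between the sites. SI centre replicate 1, with 99.7, and replicate 2, with 26.7, had nearly equal Cd74, at 11893 and 11693. T cell genes summed to 34.9 to 94.6 in SI replicates 1 and 2, 10.3 to 14.05 in SI replicate 3 and 9.11 to 35.7 in the LI, and edgeR called none of 14. Without SI replicate 3 it called 1 of the 14 higher in the SI at the centre and the border, the integrin gene Itgae (2.58, 0.00391, and 3.03, 0.00327). None was called higher above row 3, and 4.51%, 3.70% and 6.80% of all genes were called higher at the 3 levels. At an unadjusted p under 0.05 there were 1, 1 and 2 of the B and plasma cell genes and 1, 1 and 0 of the T cell genes at the 3 levels, and DESeq2 called none. Stromal genes summed to 13.1 to 210.1 in the SI and 7.29 to 365 in the LI. Of these 9 genes edgeR and DESeq2 called none between the sites, with 0, 2 and 0 at an unadjusted p under 0.05. Without SI replicate 3 edgeR called 1 higher above row 3, Vim, against 6.80% of all genes. The share of these cells in the class II counts was not tested.

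The other class II chains were at or near 0. H2-DMb2, H2-Ob and H2-Eb2 had at most 9, 21 and 4 counts in any library, H2-Oa had none and H2-Ea-ps 1 in all, and edgeR and DESeq2 called none of the 4 tested in any comparison of the sites, with 1 at an unadjusted p under 0.05 at the centre. H2-Ob and H2-Oa form H2-DO, which is known to be kept to B cells and some dendritic cells. The costimulatory genes Cd80 and Cd86 held 4 and 7 counts over all libraries and Cd40 at most 27 in one, whereas Icosl ran from 27.4 to 106 normalised counts, and neither tool called any of the 5 tested, nor was any under an unadjusted p of 0.05.

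The genes of the proteins with which Ciita acts at the promoter lay close to equal in the sites. Of these 10 genes of the transcription complex edgeR called none between SI and LI at any level, with none under an unadjusted p of 0.05, DESeq2 called none and none was called without SI replicate 3, and their median log2 fold changes were -0.04, -0.04 and 0.01. Rfx5, the gene of an RFX subunit, was at 455, 559 and 333 normalised counts at SI centre and 415, 408 and 426 at LI centre (0.05 ± 0.20). Of the 8 genes of antigen proteolysis edgeR and DESeq2 called none, with 2, 2 and 1 at an unadjusted p under 0.05. Ctss, the gene of the protease that cuts the invariant chain in antigen-presenting cells, ran from 418 to 1219 normalised counts. Ctsl, its counterpart in thymic epithelium, had log2 fold changes of -1.22, -1.27 and -1.11 and was called lower in the SI at each level without SI replicate 3 (-1.86, -1.84 and -2.03), as was Ctsd at the centre and border (-0.77 and -0.73).

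**Figure D5:**
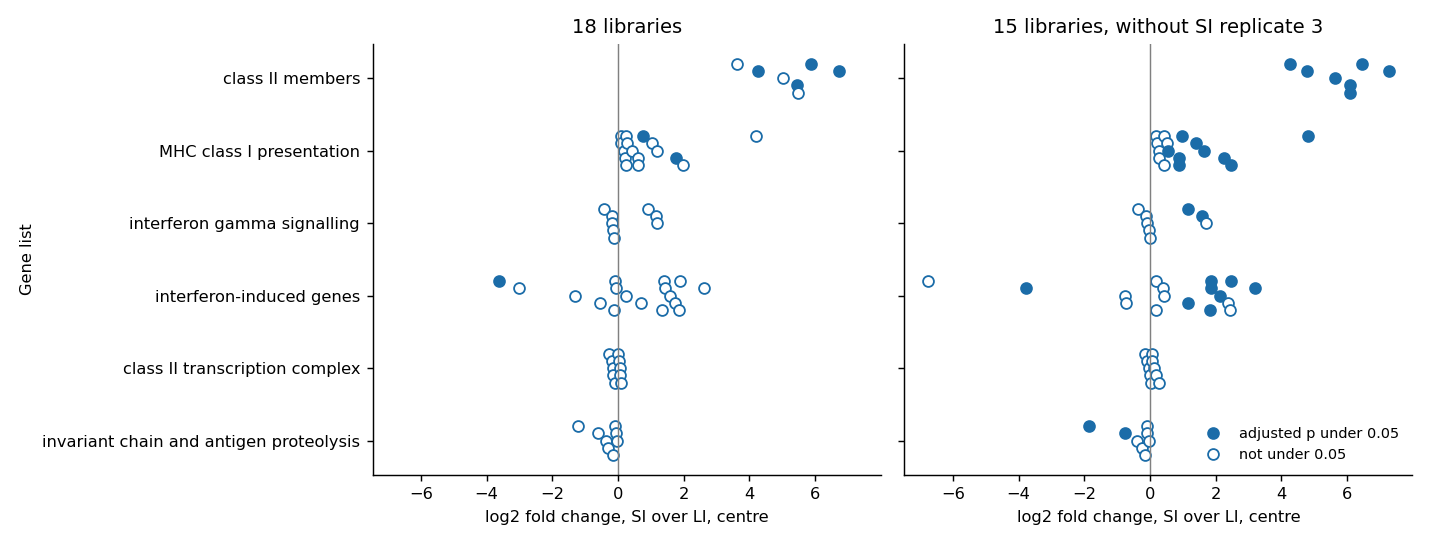
Log2 fold change of SI over LI at the centre for single genes, by list, in the fit of 18 libraries (left) and of 15 without SI replicate 3 (right), filled where the edgeR adjusted p was under 0.05. The 7 class II genes lie at 3.61 or more, 2 of 16 class I genes are filled on the left and 9 on the right, and the 10 transcription complex genes lie near 0 in both.

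Some genes of class I presentation, which shows peptides from the cytosol to CD8+ T cells, were higher in the SI by smaller amounts. Of 16 genes, 2 were called higher at the centre, Psmb9 (1.77 ± 0.45, edgeR adjusted p = 0.0461) and Psmb10 (0.76 ± 0.20, 0.0490), both subunits of the immunoproteasome. At the border 1 was called, Psmb10 (0.78, 0.0486), and above row 3 there were 3, Psmb10 (0.86, 0.0140), the peptide transporter gene Tap1 (1.70, 0.0167) and Tapbp (0.55, 0.0484). None was called lower, and the medians of the list were 0.52, 0.43 and 0.66. Over all genes 1.19%, 1.15% and 2.76% were called higher. Without SI replicate 3, 9, 10 and 12 of the 16 were called higher, against 4.51%, 3.70% and 6.80%. Nlrc5, which activates class I genes as Ciita does class II, was at 522, 524 and 42.0 normalised counts at SI centre and 45.9, 6.56 and 11.5 at LI centre. Its log2 fold changes of 4.19, 2.91 and 2.57 did not pass (0.207, 0.389 and 0.436), and without SI replicate 3 they were 4.80, 3.54 and 3.14 (0.00170, 0.0112 and 0.0164).

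Among 8 genes of interferon gamma signalling edgeR called none at any level, although 3, 3 and 4 had an unadjusted p below 0.05. By DESeq2, 1 was called higher at the centre and 1 above row 3. Irf1, which takes part in inducing Ciita, had log2 fold changes of 0.90, 0.83 and 0.84, and it was called higher at each level without SI replicate 3. In that fit 2, 2 and 4 of the 8 were called higher, against 4.51%, 3.70% and 6.80% of all genes, and 1 lower, the receptor gene Ifngr1 at the border (-0.61, 0.0414). Of 17 interferon-induced genes, 1 was called lower at the centre and at the border, the chemokine gene Cxcl10 (-3.62 ± 0.82, edgeR adjusted p = 0.0165, and -4.90 ± 1.21, 0.0319), against 0.805% and 0.599% of all genes. Above row 3, Zbp1 (1.96 ± 0.43, 0.00984) and Ido1 (4.85 ± 1.26, 0.0383) were called higher, against 2.76% of all genes. DESeq2 called 1 of the 17 lower at the centre and at the border, and 1 higher above row 3. Gbp3, Gbp6, Gbp7 and Igtp, of the interferon-inducible GTPases, had values of 1.35 to 1.57 at the centre and were called only without SI replicate 3, when 7, 4 and 8 of the 17 were called higher at the 3 levels, beside the same shares of all genes, and 1 lower at each, Cxcl10.

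From centre to row >3 of the SI, several class I genes rose. Of 16 class I genes, 5 were called higher above row 3 and none lower, against 7.35% and 5.82% of all genes, among them Tap2 (1.34 ± 0.26, edgeR adjusted p = 0.00149), H2-D1 (0.80 ± 0.16, 0.00152) and H2-K1 (0.70 ± 0.16, 0.00453), while H2-Q4 was called lower only without SI replicate 3 (-0.64, 0.0447), when 5 were again called higher. No class II gene was called higher in the fit of groups, in that with the block or in that without SI replicate 3. The interferon-induced genes Zbp1 (3.03, 1.88e-04), Ido1 (4.71, 0.0168), Oas1a (1.46, 0.0171) and Ifit1 (2.17, 0.0227) were also called higher and Tgtp1 lower (-2.87, 0.0478), and of these Ifit1 was not called without SI replicate 3. DESeq2 called 3 of the 17 interferon-induced genes higher and none lower. Ido1 was at 47.0, 0 and 0 normalised counts at SI centre and 940, 54.5 and 301 above row 3, so replicates differed widely. Jak2 (0.65, 0.0397) and the cathepsin genes Ctsd (0.82, 0.0212) and Ctsz (0.54, 0.0400) were called higher too.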

How the data were processed

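The authors sorted the cells, made libraries with the SMART-Seq Stranded kit, trimmed the reads and used STAR to align them to mm10. Deposited were the raw count of 43346 genes in each library and, for 24814 of them, the count after division by DESeq2 size factors, here called the signal. In summed lists a gene without this signal was taken as 0. DESeq2 and bcl2fastq are named in the submitters' processing notes, and neither the annotation release nor whether strand was used in counting is stated in those sources or the methods. The normalised values used above are from the deposited signal table. The 8 members and all gene lists were chosen with earlier results of these data known, so their selection is no independent evidence.

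The quasi-likelihood test of edgeR 4.0.16 (R 4.3.3) was applied to the raw counts after TMM scaling, for genes with a mean count above 0. All 18 libraries and 6 groups shared 1 robust glmQLFit, and p-values were adjusted by Benjamini and Hochberg over all 26717 genes, with a threshold of 0.05. The SE is the log2 fold change divided by the square root of F. Each script was tested on simulated counts. SI replicate 3 was left out of all levels as an alternative, and further alternatives were DESeq2 1.42.0, other scalings and filters, each library left out, and the replicate number as a block. Libraries of the same number deviated together within a site (r of 0.358 to 0.783 in the SI and 0.444 to 0.684 in the LI) and, between sites, at the border (0.197, 0.271 and 0.184), but not in every pair at the centre (0.0196, 0.314 and 0.0798) or above row 3 (-0.0296, 0.332 and 0.108). The named genes were the members, up to 4 genes of each list with the smallest adjusted p in a comparison or the highest level, and the 10 most like the class II mean or Ptprc by Pearson r of log2 CPM (prior count 2, mean CPM of at least 2). Others were named after their values were seen. The listed genes that are not named enter by counts, and not every gene that the rule allows is reported here. Intervals and SEs cover these libraries only.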

Additional observations from a re-analysis of the deposited data

How the results depend on the processing

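All 7 class II genes had a positive log2 fold change of SI over LI under each alternative run, while the number called depended on the setting. At the centre, where 4 were called, DESeq2, the replicate block within each site, the block over all libraries, the fit without SI replicate 3 at all levels and that fit with the block (chosen after seeing the data) each called 7, and a fit of the groups compared alone called 0. Leaving out libraries, singly or SI replicate 3 at all levels, gave 0 to 7. At the border, where 3 were called, DESeq2, both blocks and the fits without SI replicate 3 called 7, filterByExpr called 5 and the groups compared alone 1, and leaving out libraries gave 0 to 7. Above row 3, where 5 were called, both blocks and the fits without SI replicate 3 called 7, no filter and the groups compared alone each called 3, and leaving out libraries gave 0 to 7. The block within site takes up the spread between replicates of a site, against which SI over LI has to be judged. With it the SE of Cd74 at the centre was 0.31, against 1.28 in the main fit. Its calls for SI over LI, with or without SI replicate 3, therefore do not measure that spread. The lone leave-outs that ended every call were LI centre replicates 2 and 3, each border library but SI replicate 3, SI row >3 replicate 1 and LI row >3 replicates 2 and 3. For row >3 over centre in the SI, with 0 called, the block within site called 6, that block without SI replicate 3 called 6, and leaving out libraries gave 0 to 3. There the block over all libraries called none. The fit with the block within site and without SI replicate 3 also called 1 for border over centre in the SI and 1 for the difference of row >3 over centre between the sites, each 0 otherwise. The share of all genes called in that fit is not given, so these counts have no background beside them. Nor is it given for filterByExpr, no filter, the groups compared alone or the single leave-outs. For SI over LI it is also not given for the block within site, nor at the centre and above row 3 for the block over all libraries. The counts called in those fits have no background either. Small values changed sign: Ptprc at the centre, SI over LI, was 0.0090 without SI centre replicate 1, 0.11 without replicate 2 and 0.0084 without LI centre replicate 1, and Ptprc for row >3 over centre in the SI was -0.076 without SI centre replicate 2. H2-Eb1 for border over centre in the SI was 0.026 without SI border replicate 3. H2-DMb1 for border over centre was 0.067 with the block within site, 0.14 with the block over all libraries, and 0.21, 0.35 and 0.36 without SI centre replicate 1, SI centre replicate 2 and SI border replicate 3, and for row >3 over centre 0.083, 0.23 and 0.13 without the first, the second and SI row >3 replicate 3. Single leave-outs moved these values from -2.03 to 0.11 for Ptprc at the centre, -0.076 to 2.09 for Ptprc above row 3, -0.999 to 0.026 for H2-Eb1, and -0.68 to 0.36 and -0.80 to 0.23 for H2-DMb1. The causes were not tested. LI libraries held as few as 2 counts of a member, so fold changes there rest on few reads.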

Other observations

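Of the other pan-leukocyte genes, Ptpn6 and Rac2 were low in the libraries with the most class II RNA. Ptpn6, which encodes the phosphatase SHP-1, was at 186, 219 and 1444 normalised counts at SI centre and 923, 954 and 468 above row 3, against 1094, 967 and 959 at LI centre. In the fit without SI replicate 3 it was lower in the SI at the centre (log2 fold change -2.33, edgeR adjusted p = 5.47e-05) and rose to row >3 of the SI (2.22, 1.07e-04), and with all libraries neither value was called (-0.76, 0.677, and 0.34, 0.836). Rac2 was at 0, 1.84 and 191 normalised counts at SI centre, 133, 104 and 59.3 above row 3 and 114, 104 and 67.9 at LI centre. Lcp1, the gene of an actin-bundling protein, fell from centre to row >3 of the SI in the fit of all libraries (-1.04 ± 0.26, 0.00842).

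The enterocyte genes Krt20 and Vil1 rose from centre to row >3 of the SI (3.95 ± 0.56, edgeR adjusted p = 5.4e-04, and 1.19 ± 0.17, 8.2e-05), while Lgr5 fell by 4.58 ± 0.87 on the log2 scale (0.00399). Above row 3, Krt20 and Vil1 were also higher in the SI than in the LI (3.80 ± 0.55, 0.00160, and 1.03 ± 0.16, 5.6e-04).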
